A study of Mus musculus with 6 samples.

Results

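The measurements described here concerned 7 genes of the triggering receptors expressed on myeloid cells (TREM) and of the adaptors and kinase that carry their signal, out of 20649 genes in the count matrix. They were chosen by name, as 4 receptor genes (Trem1, Trem2, Trem3 and Treml4), 2 adaptor genes (Tyrobp and Hcst) and 1 kinase gene (Syk), and all 7 were in the matrix. Single-cell RNA-seq with 3′ chemistry had been run on CD45-positive cells enriched by bead selection from subcutaneous CT26 tumors, a colon carcinoma line, grown in female BALB/c mice that the methods give as 6 to 8 weeks old. Tumors had been injected 3 times, every other day, with exosomes that carried an antisense oligonucleotide (ASO), either exoASO-STAT6, directed at the transcription factor Stat6, or exoASO-Scramble, a control sequence, with 3 tumors in each group, and were collected 24 h after the last dose. All tumors of both groups therefore received exosomes loaded with an ASO, and the model is 1 transplanted tumor line in 1 mouse strain.

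The matrix held 9235 barcodes in 6 libraries, marked by the barcode suffixes 3 to 8. The suffixes matched no sample label, so the treatments were not compared and the libraries were not used as replicates of a treatment. Every value is given as a description with no significance test, although the calls below required the same direction in all 6 libraries. The libraries had 867 to 2017 barcodes and 11492757 to 33902084 unique molecular identifiers (UMIs), with a median of 11846 UMIs per barcode over all libraries (7270 in library 5, the lowest, to 16125 in library 4). Barcode sequences that occurred in more than 1 library numbered 16. Levels are UMIs per 1000000 UMIs (CPM) of the summed barcodes, with a 95% exact Poisson interval that covers counting error only. No doublet caller was used, and barcodes that hold 2 cells, or 1 cell and free RNA, were not told apart.

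TREM receptors are single-pass proteins with an immunoglobulin-like domain and a short tail, and they signal through the adaptor DAP12, the product of Tyrobp. DAP12 carries an immunoreceptor tyrosine-based activation motif (ITAM) that, once phosphorylated, docks the kinase Syk, while DAP10, the product of Hcst, recruits phosphoinositide 3-kinase and serves NKG2D on lymphocytes and, with DAP12, some myeloid receptors. Trem1 is known as an amplifier of inflammatory responses in neutrophils and monocytes, and Trem2 as a receptor for lipids and apolipoproteins on tissue macrophages, microglia and tumor-associated macrophages.

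The receptor genes lie in 1 cluster on mouse chromosome 17, all on the plus strand, with Treml2 between Treml4 and Trem2. In the GENCODE M21 annotation of GRCm38, the build that the submitters' notes name as mm10, Trem1 spans chr17:48232768-48246924 and Trem2 spans chr17:48346401-48354147, and 121380 bases separate the start of Trem1 from the end of Trem2. Trem3 (chr17:48247777-48258841) starts 852 bases past the end of Trem1, and Treml4 (chr17:48264295-48275360) follows it. The 2 adaptor genes are also neighbours, Tyrobp at chr7:30413760-30417585 on the plus strand and Hcst at chr7:30417712-30419854 on the minus strand, with 126 bases between their 3′ ends. Syk lies apart from them at chr13:52583173-52648792 on the plus strand.

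Trem1 and Trem2 went opposite ways by C1qa and by Ly6c2 in the macrophage barcodes below, though not by Mmp12. The 250 bases upstream of their RefSeq starts are therefore shown, with those of Treml4, a neighbour that went with Trem1 in several comparisons. Each is the plus strand of GRCm38.p6, 5′ to 3′, with the last base directly before the start. Capitals mark matches on either strand to 3 motifs, the ETS core GAGGAA, which the myeloid factor PU.1 can bind, the AP-1 motif TGANTCA and a loose C/EBP motif TTNCNNAA.
Trem1, chr17:48232489-48232738: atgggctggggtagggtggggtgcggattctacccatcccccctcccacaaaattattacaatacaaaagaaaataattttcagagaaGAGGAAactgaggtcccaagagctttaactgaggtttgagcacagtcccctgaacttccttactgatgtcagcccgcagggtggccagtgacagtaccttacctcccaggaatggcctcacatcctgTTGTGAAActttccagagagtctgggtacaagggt
Trem2, chr17:48346151-48346400: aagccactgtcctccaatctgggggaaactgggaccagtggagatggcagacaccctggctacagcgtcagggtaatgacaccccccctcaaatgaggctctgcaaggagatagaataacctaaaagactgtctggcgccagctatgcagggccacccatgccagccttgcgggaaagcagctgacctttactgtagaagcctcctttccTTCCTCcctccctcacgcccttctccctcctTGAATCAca
Treml4, chr17:48264045-48264294: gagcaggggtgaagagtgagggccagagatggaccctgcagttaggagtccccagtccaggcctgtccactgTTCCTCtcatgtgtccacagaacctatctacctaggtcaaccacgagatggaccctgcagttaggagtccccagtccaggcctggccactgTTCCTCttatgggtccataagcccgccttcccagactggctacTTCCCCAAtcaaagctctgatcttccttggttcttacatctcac

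The window of Trem1 held the ETS core at bases -162 to -157 and the C/EBP motif at -35 to -28 on the minus strand. The window of Trem2 held the ETS core at -40 to -35 on the minus strand and the AP-1 motif at -9 to -3. The window of Treml4 held 2 ETS cores on the minus strand, at -178 to -173 and -87 to -82, and a C/EBP motif at -44 to -37. Among the upstream windows of the same length of 32851 RefSeq starts, 23.3% held the ETS core, 36.8% the C/EBP motif and 6.75% the AP-1 motif, and a match describes these letters only.

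The macrophage gate took barcodes with 3 or more UMIs of Csf1r and Adgre1 together, the genes of the CSF-1 receptor and F4/80, and no UMI of Cd3e, Ncr1 or Cd79a. It held 4650 of the 9235 barcodes (50.4%), 459 to 1088 in a library, with a median of 13381.5 UMIs. All 6 macrophage markers reported that the gate did not use (Cd68, Fcgr1, C1qb, Apoe, Ms4a7 and Cd14) were found in at least 25% of its barcodes. Neutrophil markers were also present there, at a summed 549 CPM (194 to 1046 across libraries), of which 2 of 7 reached 25% of barcodes. Plasmacytoid dendritic markers were at a summed 388 CPM (303 to 452), of which 2 of 5 reached 25%. NK markers were at 71.2 CPM (40.1 to 98.2), and none of them reached 25%.

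In the macrophage gate all 4 receptor genes were detected, with Trem2 in most barcodes and Trem3 and Treml4 in few. Trem2 was at 263.7 CPM (interval 260.0 to 267.5). By library it ranged from 170 CPM in library 6 over a median of 258 to 352 CPM in library 4. Trem1 was at 47.6 CPM (46.0 to 49.2), from 34.5 CPM in library 4 over a median of 43.0 to 70.4 CPM in library 6. The library with the highest Trem1 thus had the lowest Trem2, and the library with the lowest Trem1 had the highest Trem2, with no order between the other 4 read from these values. Library 6 also had the fewest barcodes positive for C1qa, 293 of 683 at equal depth, against 624 of 772 in library 4.

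Trem3, a further DAP12-coupled receptor gene of mouse myeloid cells, was at 10.3 CPM, from 6.34 in library 5 to 14.6 in library 6. Treml4, whose product is known to strengthen Toll-like receptor 7 signalling in macrophages and dendritic cells, was at 6.85 CPM, from 4.62 in library 5 to 8.23 in library 7. Both were sparse. After each barcode was thinned to 2000 UMIs, leaving out 11 shallower barcodes of the gate, 2.13% of barcodes had a Trem3 UMI and 1.47% a Treml4 UMI, against 8.15% for Trem1 and 33.9% for Trem2. As deposited, without thinning, the shares were 12.3%, 6.67%, 29.0% and 74.1%.

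The adaptor and kinase genes varied less between libraries than the receptors. Tyrobp was at 1774 CPM (1410 in library 5 to 2042 in library 7) and had a UMI in 92.9% of thinned macrophage barcodes. Hcst was at 44.4 CPM, from 41.2 in library 6 to 47.0 in library 4. Syk was at 126.5 CPM, from 101 in library 4 to 153 in library 6. The highest library was 1.14 times the lowest for Hcst, 1.45 times for Tyrobp and 1.51 times for Syk. For the receptors it was 1.78 times for Treml4, 2.04 times for Trem1, 2.07 times for Trem2 and 2.30 times for Trem3. Where barcodes with a lymphocyte UMI were kept in the gate, Hcst was 71.3 CPM, the only one of the 7 that this choice moved by more than 1.5 times.

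**Figure D1:**
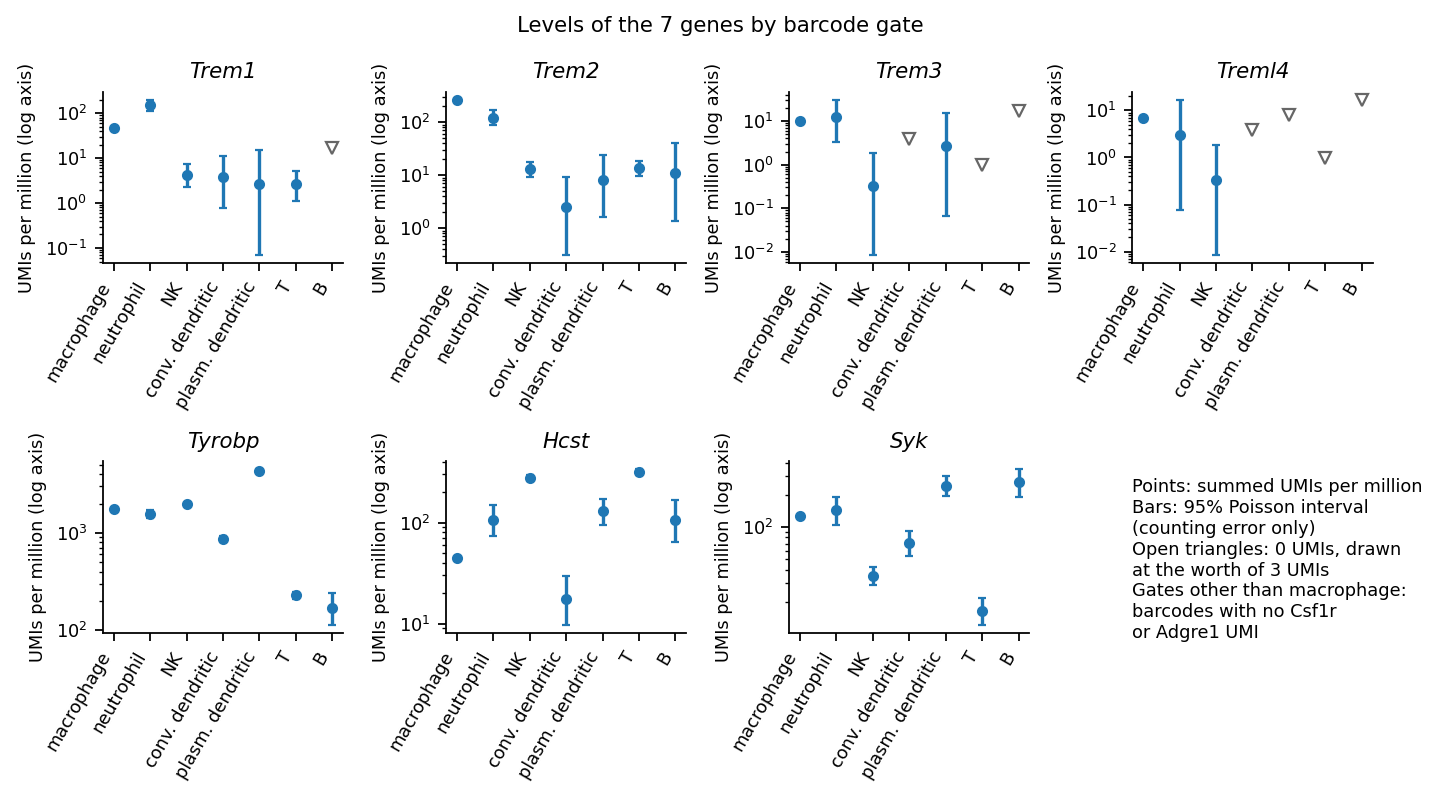
Summed level of each gene (CPM, log axis) in 7 barcode gates, with the 95% Poisson interval of the count. Trem2 is at 263.7 CPM in the macrophage gate and under 15 CPM in the NK, dendritic, T and B barcodes with no Csf1r or Adgre1 UMI, to which all gates but the macrophage gate are limited here. Open triangles mark the worth of 3 UMIs where none was counted.

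Outside the macrophages, levels were read in barcodes with no UMI of Csf1r or Adgre1, since most barcodes of the other gates carried macrophage transcripts. In the NK gate (1 or more Ncr1 UMIs), for example, 746 of 1163 barcodes had 3 or more Csf1r and Adgre1 UMIs, and Trem2 was at 222 CPM in those and at 13.1 CPM (9.34 to 17.8) in the 336 that had none. The 343 T-cell barcodes (Cd3e) with none, a class that should lack Trem2, gave 13.4 CPM (9.62 to 18.2). At 2000 UMIs, 3.14% of these NK barcodes and 3.85% of these T barcodes had a Trem2 UMI, at median depths of 6845 and 6456 UMIs as deposited. These T barcodes carried macrophage markers at a summed 341 CPM, and whether the NK level is background was not tested. Trem1 was at 4.25 CPM in NK and 2.61 CPM in T barcodes. By library it was 0 to 16.4 CPM in NK barcodes, highest in library 6, with a median of 1.18 CPM. In T barcodes it was 0 to 8.84 CPM, with a median of 2.52 CPM. Trem3 and Treml4 had at most 1 UMI in either class.

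Tyrobp differed between NK and T barcodes, and the Hcst levels of the libraries overlapped. The classes were not disjoint, since 235 of 1163 NK-gate barcodes were also in the T gate, and the T barcodes carried NK markers at a summed 2861 CPM beside 3208 CPM for T markers. In NK barcodes with no Csf1r or Adgre1 UMI, which still carried the 6 macrophage markers at a summed 337 CPM, Tyrobp was at 1974 CPM (1925 to 2024), from 1656 in library 5 to 2097 in library 3, and at 227 CPM (211 to 245) in the T barcodes. DAP12 is the partner of activating Ly49 and CD94 receptors on NK cells. Hcst was at 276 CPM (258 to 295) in NK barcodes, from 215 in library 4 to 363 in library 6, and at 317 CPM (297 to 337) in T barcodes. Even the lowest NK library was above the highest macrophage library for Hcst (215 against 47.0 CPM). For Tyrobp the NK and macrophage libraries overlapped. Syk was at 34.96 CPM (28.7 to 42.2) in NK and 16.3 CPM (12.1 to 21.5) in T barcodes, the class in which the related kinase Zap70 takes its place, and at 262 CPM (193 to 348) in the 37 B-cell barcodes, where it serves the B-cell receptor. These B-cell barcodes also carried NK markers at a summed 1461 CPM and T markers at 636 CPM, beside 1544 CPM for B-cell markers.

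Among dendritic barcodes, the plasmacytoid gate (2 or more UMIs of Siglech, itself a DAP12-coupled receptor gene) had the highest Tyrobp level of the 7 gates. In its 50 barcodes with no Csf1r or Adgre1 UMI Tyrobp was at 4300 CPM (4092 to 4516), from 3637 to 4969 CPM in libraries of 5 to 10 barcodes each, so that all 6 libraries were above the highest macrophage library. These 50 barcodes also carried macrophage markers at a summed 912 CPM (512 to 1509 by library), neutrophil markers at 320.2 CPM (0 to 1892) and T markers at 307 CPM, and their part in these levels was not tested. Syk was at 245 CPM (197 to 301) there and Hcst at 129 CPM (95.2 to 171). The 72 conventional dendritic barcodes (1 or more Flt3 UMIs and fewer than 2 of Siglech) had Tyrobp at 872 CPM (808 to 939), Syk at 70.9 CPM and Hcst at 17.7 CPM. Trem1 and Trem2 together had 5 UMIs in the conventional and 4 UMIs in the plasmacytoid barcodes. Trem3 and Treml4 had 0 UMIs in the conventional class, which allows a level of up to 3.80 CPM taken as the worth of 3 UMIs.

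The neutrophil gate (5 or more S100a9 UMIs) did not give a clean class. Of its 1049 barcodes, 908 had 3 or more Csf1r and Adgre1 UMIs and 566 (54.0%) were also in the macrophage gate, so that neutrophils, macrophages that express S100a9 and mixed barcodes cannot be told apart in it. Trem1 was at 98.8 CPM (94.9 to 102.9) in the whole gate, from 60.4 in library 4 to 125 in library 6. In the 44 barcodes with no Csf1r or Adgre1 UMI, 3 to 17 in a library, Trem1 was at 153 CPM (113 to 201), from 54.5 in library 4 to 213 in library 8, and without library 8 it was 117 CPM. Trem2 was still at 122 CPM (87.2 to 166) in the same 44 barcodes. All 6 macrophage markers were found in at least 25% of them, at a summed 3201 CPM beside 5175 CPM for the neutrophil markers. Plasmacytoid markers were at a summed 1031 CPM there (136 to 4103 by library). NK markers were at 583 CPM, T markers at 348 CPM and conventional dendritic markers at 211 CPM.

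Within the macrophage gate, Trem1 was higher in barcodes that also carried S100a9. It was at 33.2 CPM in barcodes with no S100a9 UMI, 43.3 CPM with 1 to 4, 97.3 CPM with 5 to 19 and 124 CPM with 20 or more. Barcodes with 5 or more had 3.39 times the Trem1 level of the rest (3.16 to 3.63), and the ratio was 2.23 to 4.40 in the 6 libraries. Trem3 went with it at 2.02 times, higher in 6 of 6 libraries. Trem2 was at 243 against 268 CPM (0.909 times) and higher in 2 of 6 libraries, and Treml4 at 0.975 times. C1qa was at 2627 CPM in barcodes with 20 or more S100a9 UMIs against 3068 CPM in those with none.

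Macrophage states were then read from single genes of other pathways, C1qa (complement), Ly6c2 (monocytes), Mmp12 (a matrix metalloproteinase) and Rsad2 (interferon response), and a barcode was called positive with 1 or more UMIs of the gene at 2000 UMIs. C1qa-positive barcodes made up 65.0% of the 4639 macrophage barcodes of that depth, Ly6c2-positive ones 27.1%, Rsad2-positive ones 23.3% and Mmp12-positive ones 14.2%. The member levels in these classes use all UMIs. A gene was called when its summed level differed 2-fold or more and in the same direction in all 6 libraries, among genes at 10 CPM or more in either class.

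Trem2 was higher and Trem1 lower in C1qa-positive barcodes. Trem2 was at 306 CPM in the 3015 positive and 140 CPM in the 1624 negative barcodes, a ratio of 2.19 (2.10 to 2.28). By library the positive barcodes had 217 to 369 CPM and the negative ones 108 to 236 CPM, and the ratio was above 1 in 6 of 6 libraries, from 1.57 in library 4 to 2.60 in library 7. Trem1 was at 35.5 against 83.0 CPM, a ratio of 0.428 (0.4002 to 0.458). Its levels by library were 25.7 to 64.4 CPM in positive and 61.4 to 101 CPM in negative barcodes, which overlap only through library 6, whose ratio of 0.840 was nearest to 1. Trem3 was at 7.36 against 18.9 CPM (ratio 0.389, lower in 6 of 6 libraries) and Treml4 at 5.30 against 11.4 CPM (0.464, lower in 5 of 6).

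The signalling genes moved less with C1qa. Syk was at 111 against 173 CPM (0.637, lower in 6 of 6 libraries, 0.579 to 0.831), which is under the 2-fold call. Tyrobp was at 1749 against 1849 CPM (0.946), higher in 1 of 6 libraries, with a median library ratio of 0.875. Hcst was at 44.6 against 43.8 CPM (1.02, interval 0.940 to 1.11), higher in 2 of 6 libraries, with a median library ratio of 0.968. Of the 7 genes, all tested, Trem2 was called higher, where 4.07% of 7757 genes tested were called higher. Trem1 and Trem3 were called lower, where 2.50% were called lower. The filter of 10 CPM was passed by Trem3 and Treml4 only in the negative barcodes, where both were higher. The Trem3 call therefore depends on that filter. The median ratio of the 7 was 0.637 against 1.04 over all tested genes. It rests in part on Trem3 and Treml4, so it is not read as a result about the members. Positive barcodes had a median of 15968 UMIs and negative ones 9917, and the part of this depth difference in the ratios was not tested. With the neutrophil and dendritic gates removed, Trem2 was 2.15 times and Trem1 0.356 times the negative level.

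**Figure D2:**
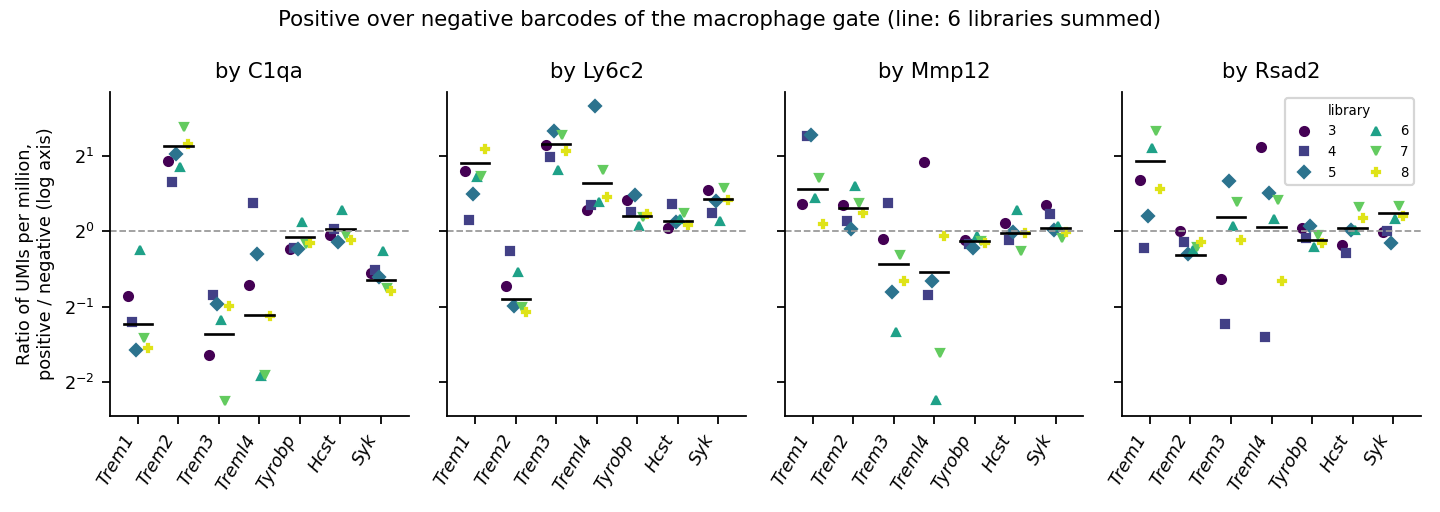
Ratio of the level in positive over negative macrophage barcodes (log axis) for each gene and state gene, with each library as a symbol and the summed ratio as a line. Trem2 lies above 1 by C1qa (1.57 to 2.60) and below 1 by Ly6c2 in all 6 libraries, and Trem1 lies the other way in both panels.

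The differences were graded with the C1qa level. In barcodes with under 1, 1 to 10, 10 to 25, 25 to 50 and 50 or more C1qa UMIs per 10000, Trem2 was at 129, 190, 237, 288 and 411 CPM. It was higher at every step in libraries 3, 5, 7 and 8, and in libraries 4 and 6 it was slightly lower at the third level than at the second (277 against 283 CPM and 181 against 188 CPM). Trem1 went from 86.7 CPM over 63.9, 51.6 and 30.8 to 23.4 CPM. In library 6 Trem1 was highest at the third level, 86.7 CPM, and in library 3 it was lowest at the second, 19.2 CPM from 42 barcodes. Syk also went down over the 5 levels, from 174 to 80.3 CPM, while Tyrobp was lowest at the third level (1510 CPM) and highest at the fifth (2094 CPM).

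**Figure D3:**
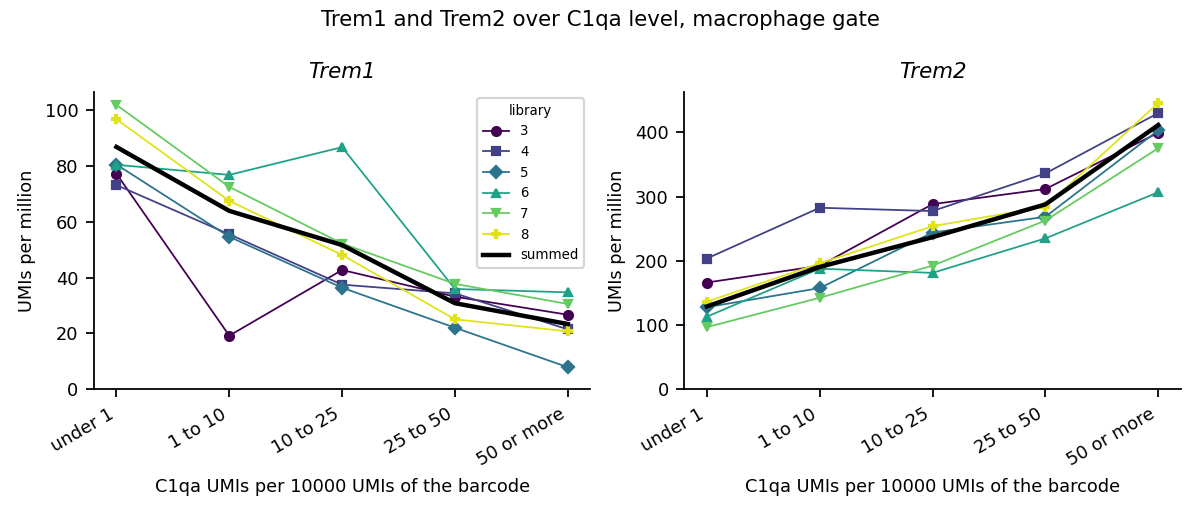
Trem1 (left) and Trem2 (right) in CPM over 5 levels of C1qa in the macrophage gate, with each library as a thin line and the summed libraries as a thick line. Trem2 goes from 129 to 411 CPM and Trem1 from 86.7 to 23.4 CPM.

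By Ly6c2, a marker of monocytes newly arrived from blood, the same receptors went the other way. Trem1 was at 74.1 CPM in 1259 positive and 39.7 CPM in 3380 negative barcodes, a ratio of 1.87 (1.74 to 2.001). The ratio was above 1 in 6 of 6 libraries, from 1.11 in library 4 (37.6 against 34.0 CPM) to 2.12 in library 8 (81.1 against 38.2 CPM). Trem3 was at 17.9 against 8.05 CPM (2.23, interval 1.92 to 2.59, 6 of 6 libraries) and Treml4 at 9.49 against 6.07 CPM (1.56, 6 of 6 libraries). Trem2 was at 159 against 295 CPM (0.538, lower in 6 of 6 libraries, 0.475 to 0.836). Syk (1.35), Tyrobp (1.15) and Hcst (1.10) were each higher in 6 of 6 libraries and under 2-fold.

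Of the 6 genes tested by Ly6c2, Trem3 was called higher, where 1.44% of 7705 genes were. None was called lower, where 2.50% were. Trem3 reached 10 CPM only in the positive barcodes, where it was higher, so its call is not independent of that filter. Ly6c2 and C1qa were not independent of each other, since C1qa was at 1184 CPM in Ly6c2-positive and 3470 CPM in Ly6c2-negative barcodes. Both comparisons use the same barcodes, so neither is support for the other. With the neutrophil and dendritic gates removed, Trem1 was 1.89 times as high in Ly6c2-positive barcodes.

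By Mmp12 and by Rsad2 none of the 6 genes tested was called, and Treml4 was under 10 CPM and not tested. In the 657 Mmp12-positive barcodes both Trem1 (65.5 against 44.3 CPM, 1.48) and Trem2 (315 against 254 CPM, 1.24) were higher, each in 6 of 6 libraries. Mmp12 was thus the only one of the 4 state genes by which both were higher. Over all 7619 genes tested by Mmp12, 0.788% were called higher and 0.407% lower. In the 1079 Rsad2-positive barcodes Trem1 was at 75.1 against 39.4 CPM, a ratio of 1.90 in the sum. By library it was above 1 in 5 of 6, from 0.856 in library 4 over a median of 1.54 to 2.52 in library 7. Without the neutrophil and dendritic gates the summed Trem1 ratio by Rsad2 was 1.34, and Trem1 by Mmp12 was 1.87. Trem2 was at 222 against 276 CPM (0.803, higher in 1 of 6 libraries), which is below the ratio of each library (0.810 to 1.002). Library 6, the lowest in Trem2 and the highest in Trem1, gave 347 of the 1079 positive barcodes. Of 7645 genes tested by Rsad2, 1.09% were called higher and 0.105% lower.

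Many barcodes were positive for several state genes, so the classes positive for only 1 were compared as well. Trem2 was at 319 CPM in barcodes positive for C1qa only (1799), 218 CPM for Mmp12 only (121), 143 CPM for Rsad2 only (175) and 97.4 CPM for Ly6c2 only (485). C1qa only was the highest and Mmp12 only the second in 6 of 6 libraries, although the Mmp12 class had as few as 6 barcodes in a library. The intervals of these 4 Trem2 levels did not overlap (313 to 325, 195 to 243, 128 to 160 and 89.1 to 106 CPM), but Rsad2 only was below Ly6c2 only in libraries 3 and 4, so the order of the last 2 classes did not hold in every library. Trem1 was at 22.1 CPM in C1qa only, which was the lowest class in 5 of 6 libraries, against 74.7 CPM in Ly6c2 only, 77.1 CPM in Rsad2 only and 97.6 CPM in Mmp12 only.

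The intervals of the last 3 Trem1 levels overlapped (67.5 to 82.5, 65.7 to 89.96 and 82.4 to 115 CPM). Barcodes positive for none of the 4 genes (489) had Trem1 at 67.9 CPM and Trem2 at 162 CPM. Barcodes positive for both C1qa and Ly6c2 (455) had Trem2 at 216 CPM, between the single classes in 6 of 6 libraries, and Trem1 at 57.0 CPM, between them in 5 of 6. In library 6 their Trem1 level was 90.7 CPM, above C1qa only (15.4 CPM) and Ly6c2 only (63.9 CPM). Tyrobp was highest in Ly6c2 only (2155 CPM) in 5 of 6 libraries, against 1769 CPM in C1qa only.

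Exclusion between Trem1 and Trem2 was then read barcode by barcode. As deposited, 53.2% of macrophage barcodes had Trem2 UMIs only, 8.13% Trem1 only, 20.8% both and 17.8% neither. Among the 2241 barcodes with at least 4 UMIs of the 2 genes together, all were Trem2 in 60.7%, all were Trem1 in 3.21% and 36.1% were mixed. The split differed by state. In C1qa-negative barcodes (427 with 4 or more) 37.7% were all Trem2, 13.8% all Trem1 and 48.5% mixed, and in C1qa-positive ones (1814) the shares were 66.2%, 0.717% and 33.1%. The 2 receptors were therefore often found in the same barcode, and these shares depend on depth.

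At equal depth the genes met in the same barcode less often than the product of their shares. Of 4639 macrophage barcodes thinned to 2000 UMIs, 378 had Trem1, 1573 had Trem2 and 89 had both, where the product of the shares within each library gives 125.3. The ratio was 0.710 (0.571 to 0.874, counting error of the 89). It was under 1 in 6 of 6 libraries, from 0.572 in library 4 over a median of 0.706 to 0.911 in library 7. Trem2 was thus in 23.5% of Trem1-positive and 34.8% of Trem1-negative barcodes. Without thinning the ratio was 0.977, where deeper barcodes have more UMIs of either gene, and with a gate of 6 or more Csf1r and Adgre1 UMIs it was 0.883, so the exclusion was partial and its size moved with these choices.

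Inside the C1qa classes the counts were smaller and the exclusion less certain. The ratio was 0.847 (0.648 to 1.09) among C1qa-positive and 0.695 (0.462 to 1.005) among C1qa-negative barcodes, and both intervals reach 1. In macrophage barcodes with fewer than 5 S100a9 UMIs it was 0.609 (0.457 to 0.794) and under 1 in 6 of 6 libraries. In those with 5 or more it was 0.978 (0.681 to 1.36), and in the whole neutrophil gate 1.01 (0.770 to 1.30), under 1 in 3 of 6 libraries in both. The barcodes with 5 or more S100a9 UMIs are those in which mixed barcodes cannot be told apart.

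The smaller receptors met Trem1 more often than the product of the shares. Trem1 and Trem3 shared 22 barcodes where 8.10 were given by the shares, a ratio of 2.72 (1.70 to 4.11) and over 1 in 6 of 6 libraries. Trem1 and Treml4 shared 13 against 5.63 (2.31, interval 1.23 to 3.95), and Trem3 and Treml4 shared 5 against 1.49 (3.35, interval 1.09 to 7.83, under 1 in 2 of 6 libraries). Trem2 and Trem3 shared 19 against 33.7 (0.564, interval 0.340 to 0.881), and Trem2 and Treml4 14 against 23.4 (0.5995, interval 0.328 to 1.01). Over barcodes with 0, 1, 2 to 3 and 4 or more Trem1 UMIs, Trem3 was at 6.21, 13.3, 20.6 and 24.7 CPM and Trem2 at 280, 244, 229 and 210 CPM, while Tyrobp was between 1758 and 1821 CPM in all 4 classes.

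**Figure D4:**
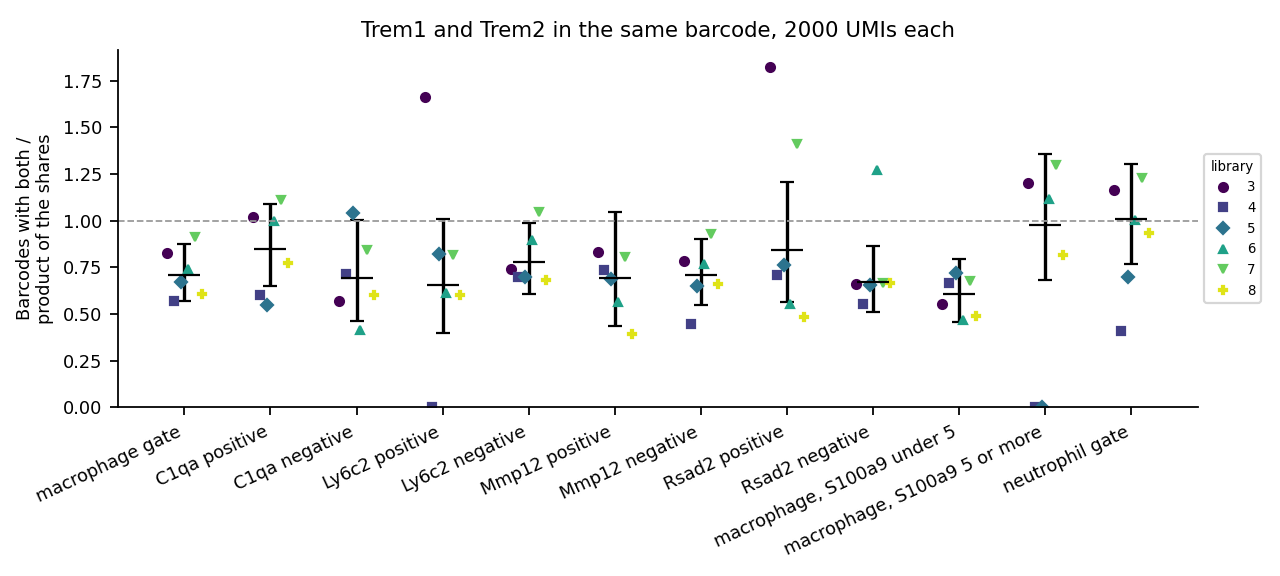
Barcodes with both Trem1 and Trem2 divided by the number that the product of their shares gives, at 2000 UMIs per barcode, for the macrophage gate, its states and the neutrophil gate. Lines with bars are the summed libraries with the 95% Poisson interval, and symbols are libraries. The macrophage gate is at 0.710 and all 6 of its libraries are under 1.

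The other genes of the pathway were read from lists by role. Of 17 other receptor genes that pair with DAP12 or DAP10 in the matrix, 13 were tested by C1qa and none was called, where 4.07% of all genes were called higher and 2.50% lower, with a median ratio of 0.792 against 1.04 over all genes. By Ly6c2 the median of the 13 was 1.40 against 0.978. Only Siglech was called higher (28.7 against 6.29 CPM, 4.57-fold), where 1.44% of all genes were. It is the gene that defines the plasmacytoid gate, of which 76 barcodes were also in the macrophage gate. Siglech was above the 10 CPM filter only in the positive class, so its call is not independent of that filter. The 2 medians cover only the genes that passed the filter, so they are not independent of it and are not read as a result about the list. Klrk1, the gene of NKG2D, the main DAP10 partner, was at 44.7 against 55.4 CPM by C1qa (0.807, lower in 6 of 6 libraries). By Ly6c2 it was at 66.7 against 41.7 CPM (1.60, higher in 6 of 6). The macrophage gate also carried NK markers at a summed 71.2 CPM, and the part of NK transcripts in the Klrk1 levels was not tested. Clec5a, a DAP12-coupled lectin gene, was at 51.6 CPM on both sides of C1qa.

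Among 11 adaptor and kinase genes of the ITAM pathway, 7 were tested by C1qa and Fgr, a Src-family kinase gene, was called lower (43.8 against 94.8 CPM, 0.462), against 2.50% of all genes tested. By Ly6c2, where 1.44% of genes were called higher, Fgr was called higher (96.9 against 44.9 CPM, 2.16). By Mmp12, where 0.788% were, Src was called higher (13.0 against 5.87 CPM, 2.21). Src passed the 10 CPM filter only through the Mmp12-positive class, so its call depends on that filter. Single calls in lists of this size are not read as a result about the lists. Fcer1g, the other main ITAM adaptor gene of myeloid cells, was at 2789 against 2831 CPM by C1qa (0.985). Of 20 genes downstream of Syk, 17 were tested, and Malt1, a subunit of the CARD9-BCL10-MALT1 complex, was called lower by C1qa (225 against 746 CPM, 0.301) and higher by Ly6c2 (589 against 289 CPM, 2.04). The other 16 were not called by either gene. The 10 inhibitory genes of the list had no call by the 4 state genes, where 0.105% to 4.07% of all genes were called in a direction, so that few or no calls in 10 genes say nothing about the list. In it were Inpp5d (SHIP-1), at 1.08, and Ptpn6 (SHP-1), at 1.08 by C1qa, each higher in 6 of 6 libraries.

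Ligand genes and genes of lipid-associated macrophages were read in the same way. Of 6 ligand and sheddase genes tested by C1qa, Apoe, which encodes a Trem2 ligand, was called higher (2298 against 1090 CPM, 2.11), where 4.07% of all genes were. Cd177, which encodes a neutrophil surface protein, was called lower (1.69 against 12.8 CPM, 0.132), where 2.50% were. By Ly6c2 it was called higher (12.7 against 2.08 CPM, 6.10), where 1.44% were. In both comparisons Cd177 passed the 10 CPM filter only through the class where it was high, so neither call is independent of that filter. Of 13 lipid-associated genes, Trem2 among them, Cd63 and Trem2 itself were called higher by C1qa, and the median of the 13 was 0.986 against 1.04, while Cd9 (0.650), Lgals3 (0.661) and Fabp5 (0.642) were lower without a call. By Mmp12, where 0.788% of all genes were called higher, Spp1 (1337 against 522 CPM, 2.56) and Cd9 (217 against 93.6 CPM, 2.32) were called higher, and the median of the 13 was 1.34 against 0.911. By Rsad2, Fabp5 was the 1 of 13 called higher (1594 against 777 CPM, 2.05), where 1.09% of all genes were. By Ly6c2, Cd63 was the 1 of 13 called lower (364 against 732 CPM, 0.497), where 2.50% were.

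Likeness of levels was read over 31 points, each a library of 1 of 7 barcode classes with 20 or more barcodes. These were macrophage barcodes positive for only 1 state gene or for none, and NK and conventional dendritic barcodes with no Csf1r or Adgre1 UMI. The conventional dendritic class gave a point in library 5 only, and the neutrophil and plasmacytoid classes gave no point. The genes most like 3 members were named by Pearson's r of log2(CPM + 10) among 4823 genes. For Trem2 they were Plau (r = 0.971), Cd93, Pilra, Apoe and Lmna (0.946), and for Trem1 they were Nfkbia (0.948), Ifrd1, Cdkn1a, Socs3 and Ptgs2 (0.925). For Tyrobp the closest gene, Tmem179b, had r = 0.783, followed by Dusp2, Rbx1, Fyb and Magohb (0.702). The points of 1 library share its depth and its tumor, and the classes differ in cell type, so these values are descriptions over points that are not independent.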

How the data were processed

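Single-cell RNA-seq of CD45-positive CT26 tumor cells was deposited by the authors as 1 matrix of raw UMI counts per gene and barcode, pooled over all samples. The submitters' processing notes name Cell Ranger 1.2, Seurat 3.1.5, R 4.0.1 and mm10, and the filter on barcodes is not given in the sources used here. Groups come from the sample titles, but barcode suffixes match no title, so treatments could not be compared, and no test was run on libraries of unknown treatment. Gates, state calls and gene lists are as given with the results. Counts were summed and scaled to CPM. Shares and states were read after thinning each barcode to 2000 UMIs without replacement, and shares have exact binomial (Clopper-Pearson) intervals. Ratios have exact conditional binomial intervals, and all intervals cover counting error only. The named genes were the 7 members, the called list genes with the most extreme ratios (up to 4 a list and state), and the 5 genes most like 3 members, among genes at 50 CPM or more in a class. Other list genes named were chosen after their values were seen. Members and lists were chosen with earlier results of these data known. A further listed macrophage marker is not reported here. Of 19 listed receptor symbols, 17 were in the matrix. The fold calls and the ratio of shared barcodes were tested on simulated data. Alternatives changed the gate, depth, seed, state call, filters and libraries. Upstream sequences come from RefSeq (GRCm38.p6), which matched 5 of the 7 members, and gene positions from GENCODE. Python 3.11.15, numpy 2.4.6, scipy 1.17.1 and pandas 2.3.3 were used.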

Additional observations from a re-analysis of the deposited data

Results flagged for a closer look

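Gaps between libraries were looked for in 38 sets of 6 libraries (member levels in the macrophage and NK gates, and member ratios by state), and 2 libraries stood apart from the other 5. The Tyrobp ratio of C1qa-positive over C1qa-negative barcodes was 1.09 in library 6, against 0.847 to 0.894 in the others, so library 6 alone had more Tyrobp in positive barcodes. The Treml4 ratio of Ly6c2-positive over Ly6c2-negative barcodes was 3.14 in library 5, against 1.22 to 1.75 in the others, and library 5 also had the lowest Treml4 level of the gate, 4.62 CPM. Chance flags about 1 in 20 such sets. Library and treatment cannot be told apart here.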

How the results depend on the processing

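No paired analysis was possible because no barcode could be tied to a numbered tumor. Ratios whose reported interval excluded 1 kept their direction under the alternatives run. Ratios whose interval included 1 crossed it in some alternatives, with values of 0.9497 to 1.04 for Hcst by C1qa, Mmp12 and Rsad2 and for Trem3 and Treml4 by Rsad2. The Trem2 ratio by C1qa, 2.19 as reported, was 2.01 at 1000 UMIs, 2.31 at 5000 UMIs, 2.09 with lymphocyte barcodes kept, 2.31 and 2.35 with the state called from 1 or 3 UMIs as deposited, and 1.97 as the median of the libraries. The Trem1 ratio by Ly6c2, 1.87 as reported, was 1.62 at 1000 UMIs and 1.65 as the median of the libraries. The shared-barcode ratio of Trem1 and Trem2, 0.710 as reported, was 0.883 with the gate at 6 UMIs, 0.977 without thinning and 0.778 with another seed. Leaving out each library gave 2.13 to 2.22, 1.77 to 1.91 and 0.665 to 0.743 for these 3 values. With barcodes of 5 or more S100a9 UMIs removed, chosen after seeing the data, they were 2.16, 1.82 and 0.609. Trem1 in the neutrophil gate, 153 CPM as reported, was 98.8 CPM in the full gate, 216 CPM with 20 or more S100a9 UMIs, and 117 to 165 CPM without each library. With the macrophage gate at 6 UMIs, Trem1 was 39.7, Trem2 277.7, Trem3 9.20, Treml4 6.005 and Syk 119 CPM. With lymphocyte barcodes kept, these were 42.3, 249, 8.95, 5.504 and 115 CPM, Tyrobp was 1648 and Hcst 71.3 CPM. Without each library, levels in the macrophage gate were 43.3 to 50.6 CPM for Trem1, 243 to 281 for Trem2, 9.48 to 10.9 for Trem3, 6.55 to 7.18 for Treml4, 1717 to 1828 for Tyrobp, 43.6 to 45.0 for Hcst and 122 to 132 for Syk. Genes called higher by C1qa, 316 as reported, were 795 with no filter on low values and 679 at 1.5-fold, and those called lower, 194, were 295 and 531. By Ly6c2 the 111 higher were 178 and 337 and the 193 lower 489 and 408. By Mmp12 the 60 higher were 102 and 189 and the 31 lower 146 and 173. By Rsad2 the 83 higher were 239 at 1.5-fold and 133 with no requirement in each library, and the 8 lower were 65 and 121. Of 104 values of the other member ratios under 4 of the alternatives, 79 stayed within the counting interval of the reported value. The causes were not tested. Depth limits Trem3 and Treml4, and the classes outside the macrophage gate hold few barcodes.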
